A study of Mus musculus with 6 samples.

Results

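The 10 genes described here encode the ubiquitin ligase receptor Fbxw7, 2 core subunits of its ligase (Cul1 and Rbx1), 2 other proteins of the ubiquitin system that act on some of the same targets (Usp28 and Skp2), and 5 proteins that Fbxw7 is known to bind (Myc, Mycn, Ccne1, Mcl1 and Klf5). They were chosen by name and found by Ensembl ID among 52325 genes counted by RNA sequencing. All 10 were present and all 10 had enough counts to be tested, among 20684 genes tested in all. The RNA came from breast tumours of C57BL/6 mice of the C3-T tumour background in which Elf5, an ETS-family transcription factor gene of the luminal mammary lineage, was reported by green fluorescent protein (Elf5-GFP). Tumours were digested with collagenase and hyaluronidase, the cells were stained for CD45, CD31 and TER119, and GFP then divided them into 2 Elf5-positive and 4 Elf5-negative libraries. Both groups share the tumour background and the reporter, and the labels give no age, treatment or number of animals. Each title carries one of 2 numbers, called here the lower and the higher title number, and a code, T1 or T2, whose meanings are not stated. Elf5-positive library 1 and Elf5-negative library 2 carry the higher number and T2, and Elf5-positive library 2 and Elf5-negative library 4 the lower number and T2. Elf5-negative libraries 1 and 3 are T1 libraries, with the higher and the lower number. No Elf5-positive library is T1, so the T code and the sort cannot be fully told apart when all libraries are compared. Since separate animals are not stated, the p-values cover no more than the variation from library to library, which may be technical.

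Fbxw7 is the F-box protein of an SCF ligase, a complex of Skp1, the cullin Cul1, the RING protein Rbx1 and an F-box protein that picks the substrate. It binds substrates through a phosphorylated motif, and the ligase then attaches ubiquitin so that the proteasome destroys them. Most known substrates drive growth or survival, and FBXW7 is mutated or lost in many human cancers. The control acts on protein, so the transcript levels given here do not show how much of a substrate protein is present. As far as the study is known, its question was whether Fbxw7 goes with Elf5 in these tumours, with Ifngr1, a chain of the interferon-gamma receptor, as the proposed substrate.

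Fbxw7 (ENSMUSG00000028086.15, chromosome 3, 84815268 to 84979198, plus strand, GRCm38) is transcribed from several start sites, and its isoforms share the substrate-binding part and differ at the amino end. GENCODE M21 lists 6 Fbxw7 transcripts, of which 4 are protein-coding, each with its own start site. The deposited gene counts add the isoforms together, so a change of start site cannot be seen in them. The RefSeq promoter table (GRCm38.p6) holds 3 windows for Fbxw7, each from 250 bases before to 50 bases after a start site. They are shown because the study asks about an ETS factor and this gene. The capitals mark GGAA, the core that ETS factors bind, read on either strand (TTCC on the printed strand).
Fbxw7 upstream window, chr3:84815327-84815626, plus strand: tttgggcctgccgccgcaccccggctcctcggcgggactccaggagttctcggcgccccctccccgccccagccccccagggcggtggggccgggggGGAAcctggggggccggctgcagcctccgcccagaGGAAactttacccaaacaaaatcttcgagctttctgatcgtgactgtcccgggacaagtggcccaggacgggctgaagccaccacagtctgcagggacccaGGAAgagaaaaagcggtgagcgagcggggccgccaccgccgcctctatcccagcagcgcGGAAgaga
Fbxw7 middle window, chr3:84863895-84864194, plus strand: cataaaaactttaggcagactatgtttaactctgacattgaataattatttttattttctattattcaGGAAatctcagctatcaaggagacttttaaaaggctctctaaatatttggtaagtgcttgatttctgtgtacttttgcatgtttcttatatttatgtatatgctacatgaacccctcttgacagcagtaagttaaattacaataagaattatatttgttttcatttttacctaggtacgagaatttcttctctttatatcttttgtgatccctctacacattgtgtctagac
Fbxw7 downstream window, chr3:84951961-84952260, plus strand: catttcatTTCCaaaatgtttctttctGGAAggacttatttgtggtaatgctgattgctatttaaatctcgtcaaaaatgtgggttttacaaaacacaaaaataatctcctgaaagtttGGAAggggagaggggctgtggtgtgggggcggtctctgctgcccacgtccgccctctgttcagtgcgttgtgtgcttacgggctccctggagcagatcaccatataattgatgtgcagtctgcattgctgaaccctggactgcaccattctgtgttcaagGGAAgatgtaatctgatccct
The upstream window is rich in G and C (69.0%) with 24 CG dinucleotides and 4 GGAA matches. The middle window has 29.7% G and C, 1 CG dinucleotide and 1 GGAA match. The downstream window has 46.0% G and C, 6 CG dinucleotides and 4 GGAA matches. The core is common, and 96.0% of the 32851 promoter windows in the table hold it, with a median of 3 matches. The longer ETS sequence CCGGAAGT, searched on both strands and containing the core, is in 3.89% of all windows and in 0 of the 13 windows found for 8 of the 10 genes. Such matches describe these letters only and say nothing of binding.

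Library totals ran from 9106660 counts in Elf5-negative library 4 to 53694884 in Elf5-negative library 3, and the smallest count of any of the 10 genes in a library was 69 (Mycn). Levels are given as CPM, counts divided by TMM-scaled library size, and log2 fold changes and differences are Elf5-positive over Elf5-negative. Elf5 itself was at 77.7 and 137.0 CPM in the Elf5-positive libraries and at 10.7, 6.93, 10.5 and 24.7 CPM in Elf5-negative libraries 1 to 4. It passed the test (log2 fold change 3.04, SE 0.48, adjusted p = 0.0165), which checks the labels because the sort selected on its reporter. Its adjusted p was 0.0573, 0.0665 and 0.0644 without Elf5-positive library 2, Elf5-negative library 1 and Elf5-negative library 3. In the T2 libraries alone Elf5 was at 2.78 (edgeR adjusted p = 0.270) and did not pass. The cell makeup of the groups differed as well. Summed over 18 epithelial markers the level was 6528 to 9519 CPM in the Elf5-positive and 2412 to 4130 CPM in the Elf5-negative libraries, and 9 of 18 rose. Summed over 10 fibroblast markers it was 767.5 to 1221 CPM against 16490 to 48750 CPM, 9 of 10 fell, and none was at 0 in every library. Of 6 pericyte markers 2 fell, and all 6 were lower in both Elf5-positive libraries than in any Elf5-negative one. Their summed level was 97.9 to 178.6 CPM against 425.9 to 878.5 CPM. Of 8 basal epithelial markers 4 fell and 2 had a positive log2 fold change. The summed basal levels overlapped, at 735.6 to 1073 CPM against 822.6 to 1499 CPM. Of 8 luminal progenitor markers 5 rose, with 4258 to 4426 CPM against 1087 to 1714 CPM. Those 5 include Elf5, whose rise follows from the sort on its reporter. The 9 leukocyte markers were low in both groups (56.8 to 170.1 against 66.1 to 387.8 CPM). Skeletal muscle markers summed to 217.9 and 38.3 CPM in Elf5-negative libraries 1 and 2 and to 2.73 to 6.64 CPM in the other 4. In these bulk samples fewer cells of a type and less RNA per cell cannot be told apart, and the part of cell makeup in the results that follow was not tested.

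None of the 10 genes passed between the sorts (p below 0.05 after Benjamini-Hochberg adjustment over all genes tested, quasi-likelihood test of edgeR). In the same comparison 4.37% of all genes passed, 121 (0.585%) with more and 783 (3.79%) with less RNA in Elf5-positive cells. At an unadjusted p below 0.05 there were 2 of the 10, Fbxw7 and Mycn, where 16.9% of all genes lay. DESeq2 and limma-voom also called 0 of the 10. The median log2 fold change of the 10 genes was 0.29, against 0.049 over all genes tested. Above 0 were 8 of the 10, and 11029 of all 20684 genes. The groups did not overlap in 1 of the 10 genes, Skp2, against 25.7% of all genes, 10.9% with the Elf5-positive libraries higher as for Skp2.

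Fbxw7 was at 42.5 and 86.2 CPM in Elf5-positive libraries 1 and 2, and at 36.3, 35.3, 34.0 and 44.6 CPM in Elf5-negative libraries 1 to 4. Elf5-positive library 2 stood alone at the top, and Elf5-positive library 1 lay just below Elf5-negative library 4, so the groups overlapped. The means were 64.3 ± 30.9 CPM (SD, n = 2) and 37.6 ± 4.82 CPM (SD, n = 4). The fitted fold was 1.71 (95% interval 1.06 to 2.76, for this gene alone), or 0.78 on the log2 scale (SE 0.30, unadjusted p = 0.0315, adjusted p = 0.228). That difference rested on 1 library, Elf5-positive library 2, which is also the only Elf5-positive library with the lower title number. Without Elf5-positive library 2 the log2 fold change was 0.18 (adjusted p = 0.821), and without Elf5-positive library 1 it was 1.20 (adjusted p = 0.0555). A lone Elf5-positive library is assumed in these fits to vary like the others.

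Within the T2 libraries that share a title number, Fbxw7 was higher in the Elf5-positive library both times, 1.93 times for the lower number and 1.20 times for the higher. Of the 10 genes 7 were higher in both such comparisons, and over all genes tested it was 34.8%. Elf5-negative library 4, with the highest Fbxw7 of its group, was also the Elf5-negative library with the most Elf5, and the shallowest, with 434 counts of Fbxw7. The other 3 Elf5-negative libraries lay within 34.0 to 36.3 CPM for Fbxw7, a narrower range than the step between the 2 Elf5-positive libraries.

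**Figure D1:**
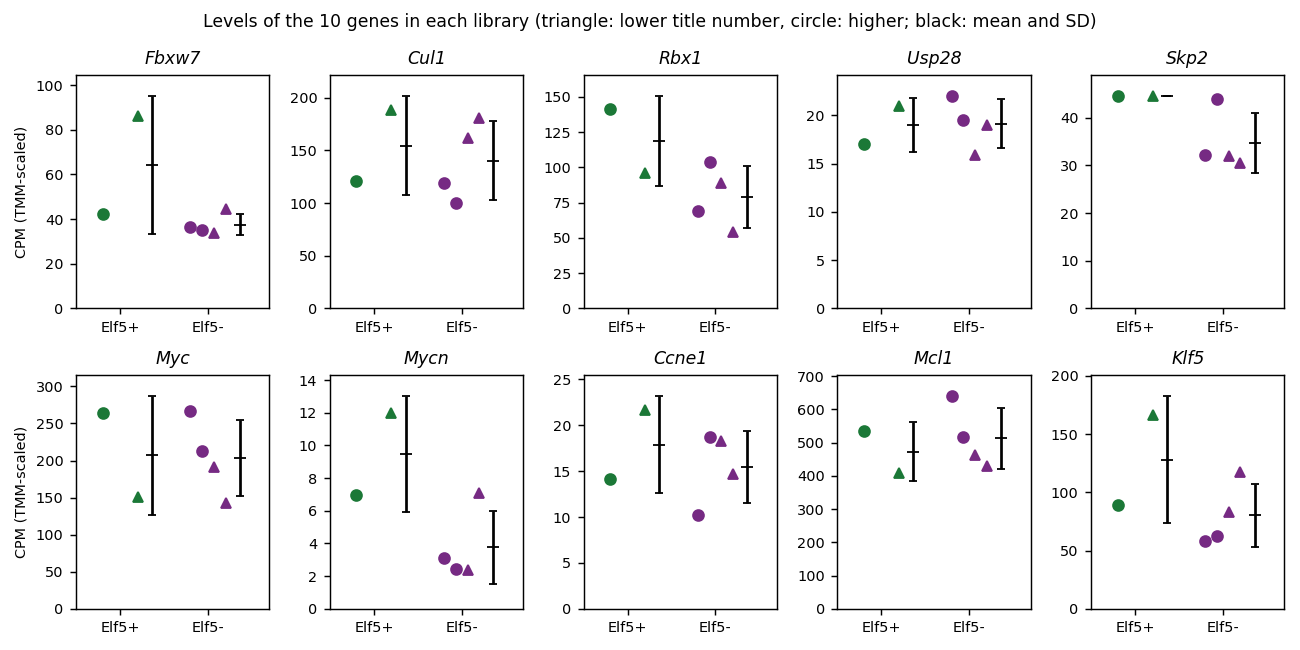
Level of each of the 10 genes (y axis, TMM-scaled CPM, from 0) in the 2 Elf5-positive (green) and 4 Elf5-negative (purple) libraries, with the lower title number as triangles and the higher as circles, and group mean and SD in black. Only for Skp2 do the groups not overlap, and for Fbxw7 1 Elf5-positive library, at 86.2 CPM, stands above all others.

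The receptor chain Ifngr1 was at 66.3 and 54.04 CPM in the Elf5-positive libraries and at 101.2, 67.3, 113.2 and 74.5 CPM in the Elf5-negative ones. All Elf5-negative libraries lay above both Elf5-positive ones, Elf5-negative library 2 by less than 1 CPM unit. Ifngr1 had a log2 difference of -0.57 (SE 0.28, adjusted p = 0.372) and did not pass. The T1 libraries, both Elf5-negative, held the most, at 101.2 and 113.2 CPM. In the T2 libraries alone the log2 difference of Ifngr1 was -0.23 (SE 0.26, edgeR adjusted p = 0.958). Within the lower title number the ratio of Elf5-positive to Elf5-negative Ifngr1 was 0.726, and within the higher it was 0.986. Ifngr2, the other chain, had a log2 difference of -0.31 (SE 0.35, adjusted p = 0.743), which was 0.068 without Elf5-positive library 2.

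The core subunits of the ligase were as follows. Cul1, the cullin scaffold that holds the F-box arm and the catalytic arm together, was at 121.3 and 188.1 CPM against 119.0, 99.8, 162.1 and 180.5 CPM. Its groups overlapped, with the highest library Elf5-positive and the lowest Elf5-negative, and its log2 fold change was 0.14 (95% interval -0.59 to 0.87, adjusted p = 0.881). The 3 libraries with the lower title number were the 3 highest for Cul1, whichever sort they came from. Cul1 is on chromosome 6 (47453398 to 47526139). Rbx1, the RING subunit that brings in the ubiquitin-conjugating enzyme, was at 141.4 and 96.2 CPM against 69.4, 103.8, 89.0 and 54.1 CPM. Elf5-positive library 1 was the highest, and Elf5-negative library 2 lay above Elf5-positive library 2. Rbx1 had a log2 difference of 0.59 (SE 0.30, adjusted p = 0.400), which was 0.28 without Elf5-positive library 1 and 0.84 without Elf5-positive library 2. Within the 2 title numbers its Elf5-positive level was 1.78 (lower) and 1.36 (higher) times the Elf5-negative one. Rbx1 and Fbxw7 had different Elf5-positive libraries at the top.

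Usp28, a deubiquitinase that binds Fbxw7 and can take ubiquitin off Myc, was at 17.1 and 20.98 CPM against 22.0, 19.5, 15.9 and 19.0 CPM. The group means were 19.0 and 19.1 CPM, and the log2 fold change was -0.0068 (95% interval -0.60 to 0.58, adjusted p = 0.995). Skp2, a different F-box protein that marks the Cdk inhibitor p27 and also Myc, was at 44.5 and 44.6 CPM in the Elf5-positive libraries. In the Elf5-negative libraries Skp2 was at 32.2, 44.0, 32.0 and 30.4 CPM, so library 2 came within 1 CPM unit of them. Its log2 fold change was 0.36 (SE 0.23, 95% interval -0.18 to 0.90, adjusted p = 0.522).

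Among the substrates, Myc, the growth-promoting transcription factor, was at 263.5 and 150.5 CPM against 266.2, 213.2, 190.8 and 142.5 CPM. Both groups spanned nearly the same range, with means of 207.0 ± 79.9 CPM (SD, n = 2) and 203.2 ± 51.3 CPM (SD, n = 4). The log2 fold change of Myc was 0.026 (95% interval -0.74 to 0.79, adjusted p = 0.981). Without Elf5-positive library 1 it was -0.43 and without Elf5-positive library 2 it was 0.37, and neither passed. The 3 libraries with the higher title number held 213.2 to 266.2 CPM of Myc and the 3 with the lower held 142.5 to 190.8 CPM.

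Mycn, the Myc relative best known from neural tissue and neuroblastoma, was at 6.97 and 12.0 CPM against 3.12, 2.43, 2.36 and 7.10 CPM. Elf5-negative library 4 lay between the Elf5-positive libraries, and the other 3 Elf5-negative libraries lay below both. The fold was 2.57 (95% interval 1.09 to 6.03, for this gene alone), a log2 difference of 1.36 (SE 0.53, unadjusted p = 0.0344, adjusted p = 0.238). Without Elf5-negative library 4, which held 69 counts of Mycn, the log2 fold change was 1.87 (adjusted p = 0.0652), and without Elf5-positive library 2 it was 0.92 (adjusted p = 0.547). Within the title numbers Mycn was 1.69 (lower) and 2.87 (higher) times as high in the Elf5-positive library.

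Ccne1, cyclin E1, which activates Cdk2 at entry into DNA replication, was at 14.2 and 21.6 CPM against 10.3, 18.7, 18.3 and 14.7 CPM. The groups overlapped, and the pairs went apart, with Elf5-positive to Elf5-negative ratios of 1.47 for the lower title number and 0.757 for the higher. The log2 fold change of Ccne1 was 0.21 (95% interval -0.57 to 0.99, adjusted p = 0.827), and -0.13 without Elf5-positive library 2. Mcl1, a Bcl2-family protein that blocks apoptosis, was the most abundant of the 10 genes, at 535.2 and 409.6 CPM against 640.1, 517.8, 463.5 and 429.2 CPM. Its highest library was Elf5-negative and its lowest Elf5-positive, with a log2 difference of -0.12 (95% interval -0.75 to 0.52, adjusted p = 0.890).

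Klf5, a zinc finger transcription factor of epithelial cells, was at 89.2 and 166.6 CPM against 58.0, 62.7, 82.9 and 117.0 CPM. Elf5-negative library 4 lay above Elf5-positive library 1, as it did for Fbxw7 and Mycn. Klf5 had a log2 difference of 0.68 (SE 0.36, adjusted p = 0.415), which was 0.16 without Elf5-positive library 2 and 1.06 without Elf5-positive library 1. In both title numbers its Elf5-positive level was 1.42 times the Elf5-negative one. The 3 highest libraries of Fbxw7, Mycn and Klf5 were the same, namely both Elf5-positive libraries and Elf5-negative library 4.

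**Figure D2:**
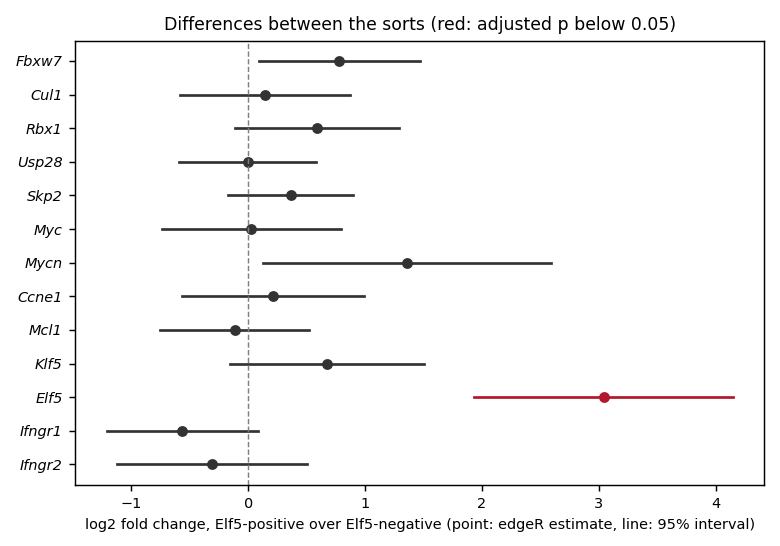
Log2 fold change, Elf5-positive over Elf5-negative (x axis), of the 10 genes and of Elf5, Ifngr1 and Ifngr2, with edgeR estimates as points and 95% intervals for each gene alone as lines. Elf5, at 3.04, is the only one of the 13 that passed, and the intervals of Fbxw7 and Mycn reach down to 0.089 and 0.13.

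The libraries were also compared by title number, with the sort as a second term, a comparison chosen after the values were seen. In edgeR 0 of the 10 genes passed, and 1 of all 20684 genes did (0.00483%). At an unadjusted p below 0.05 were Cul1, Myc and Klf5, 3 of the 10, where 14.6% of all genes lay. The libraries of the lower and the higher number did not overlap for Cul1, Myc and Mcl1, 3 of the 10 genes, where 16.9% of all genes did not. Cul1 averaged 113.4 CPM over the 3 libraries with the higher number and 176.9 CPM over those with the lower, a log2 difference, higher minus lower number, of -0.64 (SE 0.19, adjusted p = 0.255). For Myc the means were 247.6 and 161.3 CPM (0.62, SE 0.22, adjusted p = 0.293), and for Mcl1 564.3 and 434.1 CPM (0.38, SE 0.22, adjusted p = 0.447). Klf5 averaged 69.95 and 122.2 CPM (-0.79, SE 0.20, adjusted p = 0.245), and its libraries overlapped. Fbxw7 averaged 38.0 and 54.9 CPM (-0.43, SE 0.25, adjusted p = 0.451).

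Per kilobase of annotated exon, Mcl1 was the highest of the 10 genes at 119.8 to 187.3 CPM per kilobase over the 6 libraries, above Myc at 52.5 to 98.0 and Cul1 at 24.7 to 46.6. These ranges did not overlap. Cul1, Rbx1 (11.9 to 31.1) and Klf5 (11.1 to 32.0) overlapped with each other. Fbxw7, at 4.82 to 12.2 CPM per kilobase, overlapped with Ccne1 (3.85 to 8.13) and Skp2 (3.87 to 5.66), and at its top with Rbx1 and Klf5. Usp28 (2.72 to 3.78) and Mycn (0.716 to 3.64) were the lowest. The lengths are of all exons of a gene joined, not of the isoforms present, so the order is approximate.

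The genes whose levels followed Fbxw7 most closely over the 6 libraries were Zbtb43, Hnrnpk, Sgo2a, Syngr1 and Kif14. Their Pearson correlations on the log2(CPM + 1) scale were 0.993, 0.990, 0.990, 0.989 and 0.988, the highest among 12544 genes compared. The 6 points share sorts and title numbers, and 1 library, Elf5-positive library 2, was the highest for all 5. Hnrnpk encodes an RNA-binding protein, Sgo2a and Kif14 act in cell division, and none of the 5 passed between the sorts. Among the 10 genes, Mycn (0.884) and Klf5 (0.879) were the most like Fbxw7, and Mcl1 (-0.611) and Myc (-0.563) the least. Among the 12544 genes compared, Mycn ranked 481 and Klf5 519 in likeness. Elf5 correlated with Fbxw7 at 0.846 and ranked 790 in likeness.

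The other genes of the pathway were described from lists chosen by function. For comparison, 4.37% of all genes tested passed and 16.9% had an unadjusted p below 0.05. Of 15 genes of the SCF core and its regulators, 0 passed (0 at an unadjusted p below 0.05), with a median log2 fold change of 0.19. Skp1a, the adaptor that ties F-box proteins to Cul1, was at 284.1 and 182.3 CPM against 178.8, 130.2, 168.5 and 117.9 CPM, with no overlap between groups. Its log2 fold change was 0.65 (SE 0.28, adjusted p = 0.296), which was 0.29 without Elf5-positive library 1. Cops5, the COP9 subunit that takes Nedd8 off cullins, was at 0.34 (adjusted p = 0.548). Of 12 tested regulators of Fbxw7, 0 passed (0 at an unadjusted p below 0.05), with a median of 0.087. Usp9x, a deubiquitinase, was at 123.7 and 115.9 CPM against 137.1 to 180.0 CPM, with no overlap and a log2 difference of -0.45 (SE 0.22, adjusted p = 0.367). Plk1, a mitotic kinase, was at 0.53 (adjusted p = 0.460). The precursor of miR-223, a microRNA that targets FBXW7, had too few counts to be tested.

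Of 30 other Fbxw7 substrates, 0 passed in edgeR and 7 had an unadjusted p below 0.05, where 16.9% of all genes lay. Their median log2 fold change was 0.13. Klf2, a zinc finger factor of endothelial and immune cells, was at 21.7 and 27.6 CPM against 88.4, 45.3, 56.7 and 61.7 CPM. Its groups did not overlap, and its log2 fold change was -1.35 (SE 0.32, adjusted p = 0.0562). Srebf1, a driver of lipid synthesis, was at 250.9 and 279.1 CPM against 132.7 to 158.0 CPM, a log2 difference of 0.84 (SE 0.20, adjusted p = 0.0655). Both passed with DESeq2, at adjusted p of 0.0031 and 0.0021, and Klf2 also with no low-count filter (0.0167). Markers of endothelial cells, which carry the CD31 that the sort stained for to enrich tumour cells, moved in the direction of Klf2. Of 8 such markers 3 fell, their summed level was 15.1 to 43.1 CPM against 66.1 to 160.1 CPM, and their part in the Klf2 values was not tested.

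Where 3.79% of all genes fell, 1 of 13 other ligases and deubiquitinases of Myc did. This was Usp13, a deubiquitinase also on the Mcl1 list, at 0.248 and 0.252 CPM (11 and 13 counts) against 5.87, 2.46, 3.01 and 1.23 CPM. Its log2 fold change was -3.65 (SE 0.76, adjusted p = 0.0400), and its adjusted p was 0.0655 to 0.140 when any library other than Elf5-negative library 4 was left out. Fbxo32, an F-box protein best known from muscle wasting, was at 48.1 and 114.5 CPM against 31.0 to 41.8 CPM, with no overlap and a log2 difference of 1.21 (SE 0.33, adjusted p = 0.0950). It passed with DESeq2 (adjusted p = 0.0298), with no low-count filter (0.0434) and without Elf5-positive library 1 (1.704, adjusted p = 0.0254), and was at 0.45 (adjusted p = 0.510) without Elf5-positive library 2. Like Fbxw7 it was highest in Elf5-positive library 2. A list for Mcl1 held 6 ligases and deubiquitinases and Dusp6, a phosphatase of the Erk kinases, and of these 7 genes only Usp13 passed in edgeR. Dusp6 was at 0.68 (adjusted p = 0.465), at 1.09 without Elf5-positive library 1 and at 0.10 without Elf5-positive library 2. Of 7 other cullins, Cul9, a p53-binding cullin, fell, at 2.43 and 2.79 CPM against 15.6, 7.75, 15.9 and 10.5 CPM. Its log2 fold change was -2.25 (SE 0.43, adjusted p = 0.0304). The adjusted p of Cul9 was 0.0853 to 0.104 without Elf5-negative library 1 or 3 or either Elf5-positive library. Cul7 and Cul3 were at -0.77 and 0.30 and did not pass. Cul7 was at -1.69 without Elf5-positive library 1 and at -0.22 without Elf5-positive library 2, and Cul3 at 0.14 without Elf5-positive library 2. In the T2 libraries alone Usp13 was at -2.88 and Cul9 at -1.80, with edgeR adjusted p of 0.232 and 0.258. The fibroblast markers moved in the same direction as Usp13 and Cul9, and their part in these values was not tested.

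In the Myc network 0 of 12 genes passed in edgeR (1 at an unadjusted p below 0.05), with a median log2 fold change of 0.17. Mlxipl, a glucose-sensing partner of Mlx, was at 1.59 (adjusted p = 0.202) and Mycl, the third Myc gene, at 1.03 (adjusted p = 0.363). Both were high in Elf5-positive library 1 only, with Mycl at 28.2 CPM there and 6.89 to 10.9 CPM in the other 5. Of 20 Myc target genes of ribosome assembly and growth, 0 passed (0 at an unadjusted p below 0.05), with a median of 0.22 and values from -0.42 to 0.55. Fbl, the nucleolar methyltransferase, and Nolc1, a nucleolar chaperone, were at 0.55 and 0.31.

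Of 19 genes of the cyclin E, Cdk2 and Skp2 axis, 0 passed in edgeR, with a median of 0.28. At an unadjusted p below 0.05 were 3 of them, where 16.9% of all genes lay. Cdkn1c, a Cdk inhibitor, was at 9.11 and 5.01 CPM against 10.1 to 20.6 CPM (log2 fold change -1.28, edgeR adjusted p = 0.155), and it passed with DESeq2 (adjusted p = 0.0353). Ccna2, cyclin A2, was at 296.7 and 451.9 CPM against 161.6 to 255.4 CPM (0.79, adjusted p = 0.188). In the Bcl2 family 0 of 16 passed in edgeR (3 at an unadjusted p below 0.05), with a median of -0.084. Bik, a death-promoting member, was at 8.75 and 14.4 CPM against 1.73 to 5.07 CPM (1.98, SE 0.49, adjusted p = 0.0695). Bcl2l1, which encodes the survival protein Bcl-xL, was at 126.2 and 114.0 CPM against 59.6 to 75.4 CPM (0.79, SE 0.20, adjusted p = 0.0748). Both passed with DESeq2, at adjusted p of 0.0037 and 0.0170, and Bik also with limma-voom (0.0425) and no low-count filter (0.0330). In the Klf family 0 of 15 tested genes passed in edgeR (1 at an unadjusted p below 0.05). Klf5 followed Klf2 by p in the family, and Klf9 was at -0.83 (adjusted p = 0.494).

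**Figure D3:**
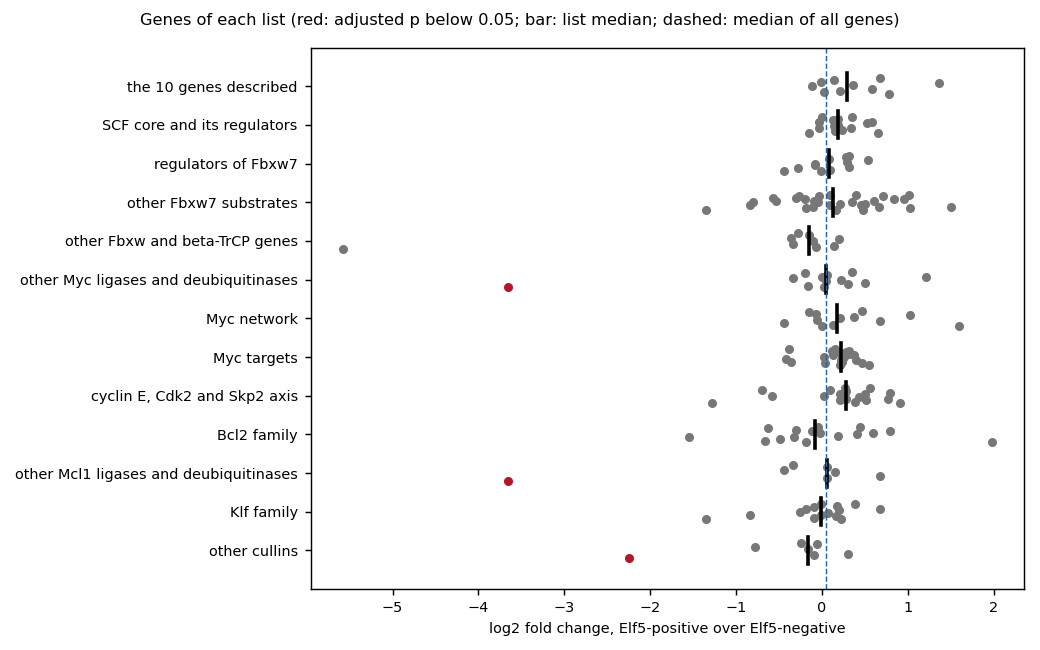
Log2 fold change, Elf5-positive over Elf5-negative (x axis), of every tested gene of each list (points), with the list median as a bar and the median of all genes, 0.049, as a dashed line. Red points passed and are Usp13, on 2 lists, and Cul9, while the leftmost point, Fbxw10, had 0 and 1 counts in the Elf5-positive libraries and did not pass in edgeR.

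F-box genes were taken by symbol (Fbxw, Fbxl, Fbxo, Btrc, Ccnf and Skp2), so Fbxl12os is counted and F-box genes with other symbols are not. Among the 63 so found and tested, of 82 in the table, 1 rose and 1 fell, where 0.585% and 3.79% of all genes did. The median log2 fold change of the 63 was 0.0031. Fbxo5, the Emi1 inhibitor of the anaphase-promoting complex, rose, from 22.5 to 29.0 CPM in the Elf5-negative libraries to 49.0 and 53.4 CPM (log2 fold change 1.01, SE 0.21, adjusted p = 0.0387). Fbxl7 fell, with 0.225 and 0.116 CPM against 1.23 to 3.95 CPM (-3.92, SE 0.77, adjusted p = 0.0332). In the T2 libraries alone Fbxo5 was at 0.93 and Fbxl7 at -3.05, with edgeR adjusted p of 0.309 and 0.223. The adjusted p of Fbxo5 was 0.0667 to 0.152 with any 1 library left out, and that of Fbxl7 0.0718 to 0.139 without either Elf5-positive library or Elf5-negative library 1 or 3. Fbxl13 was the third by p, at 0 and 0.136 CPM against 0.823 to 1.18 CPM (edgeR adjusted p = 0.0888). It passed with DESeq2 (adjusted p = 0.00061), limma-voom (0.0461), no low-count filter (0.0280) and without Elf5-positive library 2 (0.0485). Fbxw7 ranked 9 by p and 7 by size of the increase, and Skp2 ranked 20 and 14. By mean level per kilobase Fbxw7 ranked 23 of 63. Of 9 other Fbxw and beta-TrCP genes on a chosen list, 0 passed in edgeR (1 at an unadjusted p below 0.05), with a median of -0.15. Fbxw4, one of them, was at -0.36 (adjusted p = 0.646), and at -0.70 and -0.075 without Elf5-positive libraries 1 and 2. Fbxw19, tested but not on that list, was at 0.95 (SE 0.92, edgeR adjusted p = 0.701), with at most 1.49 CPM in a library. Fbxw10, with 0 and 1 counts in the Elf5-positive libraries, had the smallest p (edgeR adjusted p = 0.115) and passed with DESeq2 (0.0225), with no low-count filter (0.0285) and without Elf5-negative library 4 (0.0456), where it had 0 counts as well.

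When libraries were scaled to the 18 epithelial markers in place of TMM, the median over all genes moved from 0.049 to -1.40 (log2), with 17 genes higher and 11575 lower. On that scale Fbxw7 was at -0.64 (adjusted p = 0.203), which is 0.77 above the median of all genes. Mycn and Klf5, at -0.093 and -0.72, were 1.31 and 0.68 above it. The other 7 genes passed as lower, from -0.87 (Rbx1) to -1.61 (Mcl1), where 56.0% of all genes passed. Relative to the median of all genes they lay from -0.21 to 0.53. Ifngr1 was at -2.02 and Elf5 at 1.602, and both passed. That scaling shifted all genes together, so the negative sign of single genes under it follows from the shift.

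**Figure D4:**
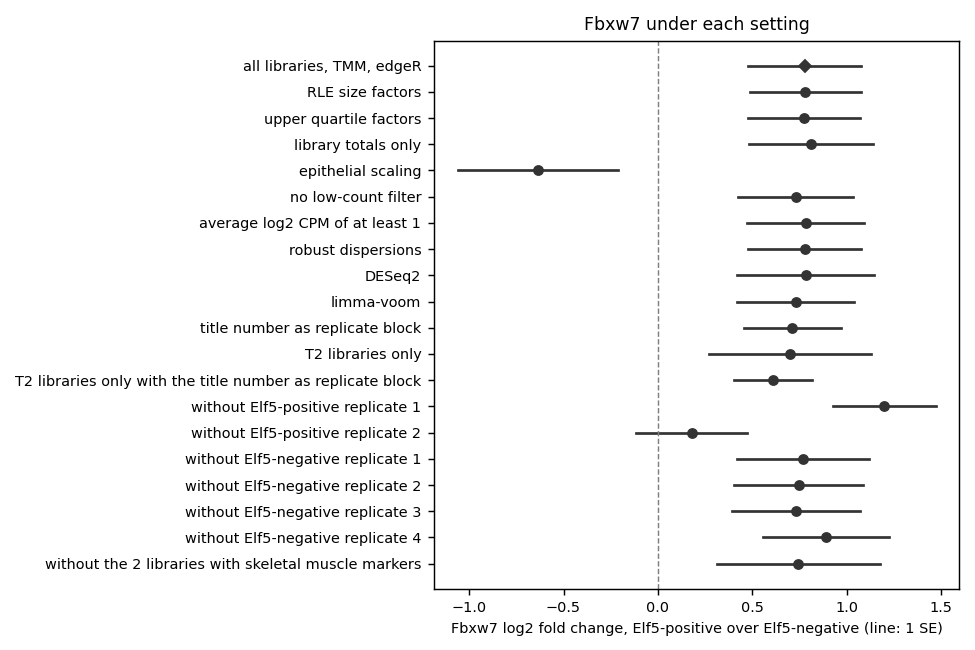
Log2 fold change of Fbxw7, Elf5-positive over Elf5-negative (x axis), with 1 standard error, under each setting (y axis), the diamond being the fit with all libraries. It runs from -0.64 with epithelial scaling to 1.20 without Elf5-positive library 1, lies at 0.18 without Elf5-positive library 2, and passed in none of the 20 fits.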

How the data were processed

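RNA sequencing of 6 libraries was used, 2 Elf5-positive and 4 Elf5-negative by their genotype labels, numbered within a group in accession order. The deposited table holds whole-number expected counts (estimated counts per gene, not normalized) that the authors made with Salmon on GRCm38.p5, as listed per the submitters' processing notes. Version, annotation release and the step from transcripts to genes: not given in the sources used here. Reads that match several similar genes are divided among them by a model, so such genes are less certain. Rounding changed 0 values. Symbols were matched for 52220 of 52325 IDs without their version, and coordinates and exon lengths came from GENCODE M21 (GRCm38).

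Tools were rtracklayer 1.62.0, DESeq2 1.42.0, limma 3.58.1 and edgeR 4.0.16 under R 4.3.3, with Python 3.11.15 and matplotlib 3.10.9 for figures. After filterByExpr and TMM scaling, the sorts were compared by the quasi-likelihood test of edgeR, without a block, with Benjamini-Hochberg adjustment over all 20684 genes tested. Standard errors are the log2 fold change over the root of F. The fitting was tested on simulated counts. The 10 genes, the lists and the markers were chosen with earlier results of these data known. Named were the 10 genes, Elf5, both receptor chains, list members that passed, up to 2 of smallest p that did not, the 3 F-box genes of smallest p and the 5 genes most like Fbxw7 (average log2 CPM of at least 1, with predicted genes and clones left out). Alternatives were other scalings, filters and tools, a block for the title number, the T2 libraries alone, and fits with 1 library removed.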

Additional observations from a re-analysis of the deposited data

Results flagged for a closer look

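For 45 genes the spread within the Elf5-negative group was examined, and in 4 of them a single library lay apart from the other 3, judged by its distance to the closest one as a share of the range. Chance marks about 1 in 20 genes in this way. Elf5-negative library 2 held 44.0 CPM of Skp2, where the other 3 held 30.4 to 32.2 CPM. It also held 114.2 CPM of Nolc1 (86.9 to 90.1 CPM in the others) and 17.4 CPM of Fbxw4 (13.7 to 14.1 CPM). Elf5-negative library 4, the shallowest, held 7.10 CPM of Mycn, where the others held 2.36 to 3.12 CPM.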

How the results depend on the processing

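Fbxw7 stayed above 0 and did not pass in 18 of 19 alternatives, with log2 fold changes from 0.18 to 1.20 when 1 library was left out. With epithelial scaling it was at -0.64. None of the 10 genes passed in any alternative other than epithelial scaling. Genes higher in the Elf5-positive libraries numbered 121, and 17 with epithelial scaling, 273 with no low-count filter, 436 with DESeq2, 0 in the T2 libraries (469 at an unadjusted p below 0.05, edgeR) and 0 without the 2 Elf5-negative libraries that held skeletal muscle markers (539), an alternative chosen after seeing the data. Genes lower numbered 783, and 11575, 1331, 1763, 0 (1463) and 75 in the same order. The 2 libraries with muscle markers are also the only Elf5-negative ones with the higher title number, so leaving them out removes that number from the group. With 1 library left out, 25 (without Elf5-negative library 1) to 133 were higher and 197 (without Elf5-positive library 2) to 811 lower. With the title number as a replicate block 252 were higher and 1011 lower. With that block on T2 libraries alone there were 549 and 1368. Fbxw7 was at 0.71 (adjusted p = 0.175) and 0.61 (adjusted p = 0.150) in the blocked fits, and the block gave none of the 10 genes a call. At an unadjusted p below 0.05 were 3 of the 10 with all libraries, where 1372 genes higher and 2784 lower of 20684 lay. On T2 libraries alone it was 4 of the 10, against 2080 higher and 2847 lower of 19395. There Rbx1, Klf5 and Mycn had adjusted p of 0.0769, 0.0866 and 0.0911. With all libraries the blocked fit called Bik (adjusted p = 0.0250) and Fbxo32 (0.0476). On T2 libraries alone it called Bik (0.0103), Klf2 (0.0170), Cdkn1c (0.0318), Cul7 (0.0392), Bcl2l1 (0.0415), Srebf1 (0.0416) and Skp1a (0.0457). T2 libraries that share a number deviated together (correlation 0.777 over genes), which the main fit, having no block, leaves out. With only 2 pairs and no stated meaning of the number, what such libraries share is not known. With all libraries, the SE of Fbxw7 was 0.26 with the block and 0.30 without it.

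Epithelial scaling moved the median of all genes to -1.40, so a gene between 0 and about that size turns negative by construction, which says nothing of the single gene. These were Cul1 -1.26, Rbx1 -0.87, Skp2 -1.09, Myc -1.49, Mycn -0.093, Ccne1 -1.18, Klf5 -0.72, Skp1a -0.84, Cops5 -1.08, Plk1 -0.91, Srebf1 -0.62, Fbxo32 -0.18, Fbxo28 -0.92, Mlxipl -0.012, Mycl -0.49, Fbl -0.93, Nolc1 -1.15, Ccna2 -0.66, Bcl2l1 -0.66, Dusp6 -0.72, Cul3 -1.14, Fbxo5 -0.45, Zbtb43 -1.17, Hnrnpk -1.24, Sgo2a -0.78, Syngr1 -0.43 and Kif14 -0.76. Usp28, near 0, was at 0.00083 with RLE factors, 0.020 with library totals, 0.00077 with DESeq2, 0.0032 with limma-voom, 0.00013 with the block and 0.15 without the 2 muscle-marked libraries. Myc was at -0.022 with no filter and -0.0035 with the block. Mcl1 was at 0.0020 in the T2 libraries and 0.098 without the 2 muscle-marked libraries, and Cul1 at -0.12 without those. Without them, all Elf5-negative libraries carry the lower title number, and Cul1 and Mcl1 did not overlap between the title numbers. With 1 library left out, Usp28 ran from -0.16 to 0.14, Myc from -0.43 to 0.37, Mcl1 from -0.32 to 0.062, Cul1 from -0.21 to 0.42, Ccne1 from -0.13 to 0.48 and Mycl from -0.25 to 1.69. Ifngr2 reached 0.068. The cause of the sign changes other than those with epithelial scaling was not tested. Without Elf5-positive library 1, Fbl, Klf9 and Mlxipl moved from 0.55, -0.83 and 1.59 to 0.15, -0.23 and 0.42. Without Elf5-positive library 2, Plk1, Cops5, Ccna2 and Klf9 were at 0.34, 0.22, 0.46 and -1.89. Of the 10 genes, Mycn had the lowest count in a library, 69.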

Other observations

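Cdkn1b, which encodes the Cdk inhibitor p27 that Skp2 marks for destruction, was chosen after its values were seen. Elf5-positive library 2 held 459.3 CPM of it and Elf5-negative library 4 held 333.1 CPM, both of them T2 libraries with the lower title number. The other 4 libraries held 76.7 to 110.7 CPM. Between the sorts Cdkn1b stood at a log2 fold change of 0.91 (SE 0.71, edgeR adjusted p = 0.613). The same 2 libraries were the highest of their groups for Fbxw7, Mycn and Klf5, whose levels are given above.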
